A study of Mus musculus with 10 samples.

Results

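The genes described here are the natriuretic peptides, the protease that matures one of them, and their receptors: Nppa, Nppb, Corin, Npr1, Npr2 and Npr3. They were chosen by symbol, and all 6 were found among the 23337 genes of the count files. Gene counts came from bulk RNA-Seq of 10 libraries, each made from 1 tissue of 1 mouse, either the left ventricle (LV) or skeletal muscle (SkM). The 5 mice were 2 WT and 3 E0del/+ hybrids from C57BL/6 E0del/+ parents bred to 129SvEv WT parents, and both tissues were taken from every mouse. E0del/+ mice carry, on 1 of their Ttn alleles, a deletion of E0, a conserved enhancer in the first intron of the titin gene. The comparison of genotypes asked how the loss of E0 on 1 allele relates to muscle transcripts, and the comparison of tissues asked how far each gene belonged to the ventricle.

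Natriuretic peptides are hormones of the heart. Cardiomyocytes make ANP (from Nppa) and BNP (from Nppb) as precursors, and their transcripts are widely read as markers of wall stress because stretch and pressure load raise them in the ventricle. Corin is a transmembrane protease of cardiomyocytes that cleaves pro-ANP. The peptides act through the guanylyl cyclase receptors NPR-A (Npr1), for ANP and BNP, and NPR-B (Npr2), for CNP, which produce cyclic GMP. Through NPR-A, ANP and BNP relax vessels and promote sodium loss. NPR-C (Npr3) takes the peptides up and clears them.

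Total gene counts were between 11010021 and 15361520 in the LV libraries (median 11463197, n = 5) and between 13892390 and 17484873 in the SkM libraries (median 15009186, n = 5). Levels are given as CPM of the gene counts of a library or, where genes are compared with each other, as RPKM, which also divides by exon length. Ttn, the targeted gene, stood at 7959 and 9344 CPM in the LVs of WT replicates 1 and 2, and at 7737, 5560 and 6597 CPM in those of E0del/+ replicates 1 to 3. In SkM it stood at 24205 and 15856 CPM in WT and at 20092, 18854 and 13585 CPM in E0del/+. The LV values of E0del/+ lay below both WT values, narrowly for replicate 1, as for 6.53% of all genes tested. The SkM values overlapped. In the test of LV the log2 fold change of Ttn was -0.45 (95% interval -1.06 to 0.17), with E0del/+ at 0.972 times the WT level in batch 1 and at 0.595 times in batch 2. WT LV replicate 2, the WT library of batch 2, held skeletal muscle counts, and Ttn is higher in SkM. Without that library the log2 fold change of Ttn was -0.25 (95% interval -1.10 to 0.61), and with the estimated skeletal muscle counts subtracted E0del/+ was at 0.681 times WT in batch 2. Without WT LV replicate 1 the log2 fold change was -0.61, and with scaling on the ventricle markers, under which the median of all genes was -0.25, it was -0.73 (95% interval -1.23 to -0.23), and neither was called. These counts sum both alleles over exons, outside the deleted intron segment, so they do not check the genotype labels.

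The WT LV replicate 2 library stood apart. All 7 markers of fast skeletal muscle were far above the other LVs in it, summing to 26151 CPM against between 108 and 123 CPM, and Myh4, the most abundant of them, stood at 18473 CPM. With the level of the other LVs taken off, these markers stood at a median of 21.7% of their level in an SkM library (E0del/+ replicate 3). That library, from another mouse and genotype, was also the source of the skeletal muscle counts subtracted throughout. Myh1 and Tnni2 stood at 3240 and 4591 CPM in it, against 1707 and 6059 CPM in the SkM of WT replicate 2. In WT LV replicate 2, 6 ventricle markers stood at a median of 69.6% of their mean in the other LVs. The genotype results of the peptides in LV are given with and without it. Ventricle markers in SkM summed to between 71.1 and 347 CPM, against between 52366 and 76440 CPM in LV, so the tissue labels held in the other libraries. In the 2 mice WT replicate 2 and E0del/+ replicate 3, Xist stood below 5 CPM in both tissues, and in the other 3 mice it stood at 278 CPM or above. Each genotype therefore held mice with and without Xist.

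Nppa encodes the precursor of ANP. In the mm10 coordinates of the files it lies on chromosome 4 from 148000746 to 148002067 on the plus strand, with 3 exons summing to 829 bp. Nppb, which encodes the precursor of BNP, lies 13540 bp upstream on the same strand, from 147985789 to 147987205, with 3 exons summing to 780 bp. Downstream of Nppa, the nearest exon base of Clcn6 lies after a gap of 4416 bp. In the GENCODE M21 annotation, the antisense gene Gm13054 covers 64.2% of the exon length of Nppa. Since the strand of a read is unknown here, transcripts of Gm13054 cannot be told apart from those of Nppa. Antisense genes cover 9.89% of the exon length of Npr1 (Gm16048), 2.92% of that of Corin (Gm20647) and 1.61% of that of Npr2 (Gm12473), and none of Nppb or Npr3.

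The promoters of Nppa, Nppb and Corin are shown because transcripts of these genes were abundant in LV and far less so in SkM. The sequences are from RefSeq on GRCm38.p6, which held all 6 genes, and each window runs from 250 bases before to 50 bases after the RefSeq start, 5′ to 3′ on the strand of the gene. Capitals mark every match on either strand to 7 motifs. These were GATAA for the GATA factors of the heart, AAGTG for the homeodomain factor NKX2-5, CATTCC for the MCAT element that binds TEAD factors, TATAAA for the TATA box, TGACTCA for the AP-1 complex, and by name the MEF2 site and the CArG box of SRF, both with a core of A and T only. The windows lie at chr4:148000472-148000771 for Nppa and chr4:147985650-147985949 for Nppb, both on the plus strand, and at chr5:72504491-72504790 on the minus strand for Corin.
Nppa: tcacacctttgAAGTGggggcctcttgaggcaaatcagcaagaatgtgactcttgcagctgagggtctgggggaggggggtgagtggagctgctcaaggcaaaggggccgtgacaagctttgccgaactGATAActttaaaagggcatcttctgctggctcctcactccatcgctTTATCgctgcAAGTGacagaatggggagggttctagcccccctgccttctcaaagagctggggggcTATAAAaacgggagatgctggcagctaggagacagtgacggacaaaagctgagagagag
Nppb: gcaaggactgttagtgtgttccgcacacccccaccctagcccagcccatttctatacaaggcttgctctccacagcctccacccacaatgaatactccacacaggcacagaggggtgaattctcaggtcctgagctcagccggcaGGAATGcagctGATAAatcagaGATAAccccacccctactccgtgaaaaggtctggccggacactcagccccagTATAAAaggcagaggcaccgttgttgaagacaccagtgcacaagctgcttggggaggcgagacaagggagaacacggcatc
Corin: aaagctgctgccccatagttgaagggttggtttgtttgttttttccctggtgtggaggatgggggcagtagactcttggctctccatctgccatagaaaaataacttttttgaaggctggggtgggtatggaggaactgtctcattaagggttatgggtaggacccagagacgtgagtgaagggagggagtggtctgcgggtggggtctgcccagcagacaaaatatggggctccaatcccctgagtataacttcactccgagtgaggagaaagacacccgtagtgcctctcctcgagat

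The Nppa window held 2 matches to GATAA, at -121 and, on the other strand, at -75, 2 matches to AAGTG, at -239 and -65, and TATAAA at -9. The Nppb window held 2 matches to GATAA, at -94 and -83, CATTCC on the other strand at -105, and TATAAA at -31. The RefSeq start used for Nppb, 147985900, lies after the first exon base of the files, 147985789, and that of Nppa lies 24 bases before exon 1 of the files. For Npr3 the distance is 1697 bases, so its window is not the start of the gene model that was counted. No match to these motifs occurred in the Corin window, nor in those of the 3 receptors. Among 32851 mouse promoter windows of this length, 25.4% held a GATA match, 46.4% an NKX2-5 match, 14.7% an MCAT match, 13.6% a TATA match, 5.2% an AP-1 match, 0.557% a MEF2 site and 1.63% a CArG box. The matches describe letters and do not show binding.

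**Figure D1:**
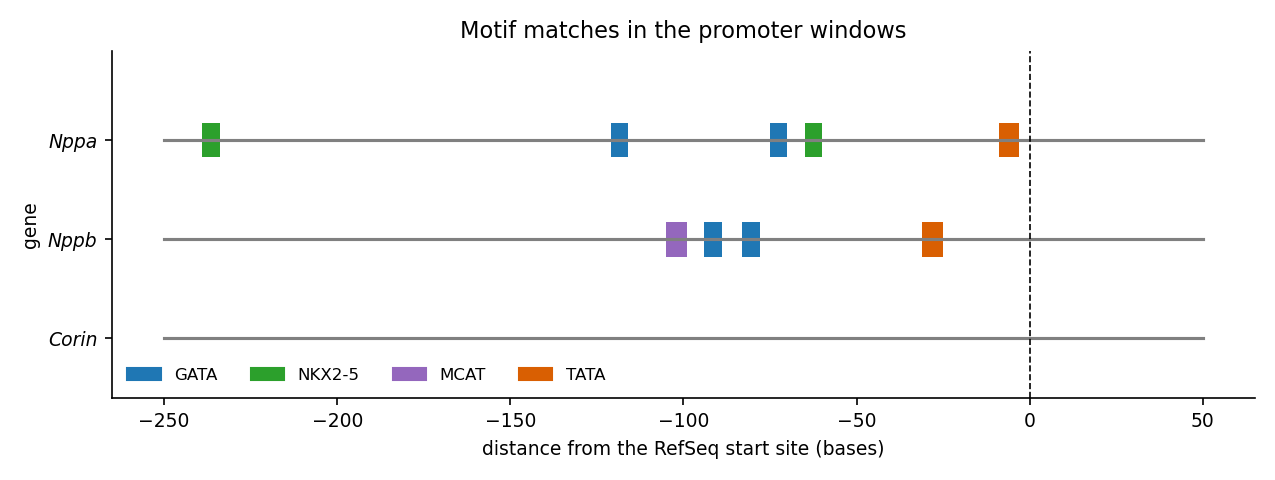
Matches to the searched motifs (coloured bars) in the promoter windows of Nppa, Nppb and Corin, by distance in bases from the RefSeq start (dashed line). Nppa and Nppb each hold 2 GATA matches and 1 TATA match before the start, and the Corin window holds none.

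In LV, Nppa stood at 219.7 and 196.7 CPM in WT replicates 1 and 2, and at 221 CPM, 582 CPM and 433 CPM in E0del/+ replicates 1 to 3. E0del/+ replicate 1 was level with WT, and replicates 2 and 3 were clearly higher. Before any subtraction of skeletal muscle counts, the genotypes did not overlap but touched. For E0del/+ replicate 1, the 95% Wilson interval of 214 to 229 CPM, which covers counting error only, spanned the WT replicate 1 value. Nppb stood at 54.5 and 43.4 CPM in the WT LVs and at 64.6, 119.7 and 145 CPM in E0del/+ replicates 1 to 3. Both WT values were the lowest, and as for Nppa, E0del/+ replicates 2 and 3 were the highest.

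In SkM, Nppa was at 0.936 and 3.43 CPM in WT and at 4.55, 6.66 and 0.633 CPM in E0del/+, which are between 9 and 100 reads a library. Nppb was at 0.216 and 0.229 CPM in WT and at 0.738, 0.133 and 0.422 CPM in E0del/+, or between 2 and 12 reads. The genotypes overlapped for both peptides, and Nppb in SkM was too low for a test. Ventricle markers in the SkM libraries stood at a median of 0.137% to 0.407% of their level in the LV of the same mouse. For Nppa the same share was between 0.146% and 2.06%, above the median of the ventricle markers in each mouse. It lay within the range of single markers in 4 of 5 mice, all but WT replicate 2. The upper end of that range came from Myl2 in every mouse. Leaving Myl2 aside, Nppa lay above every ventricle marker in all mice but E0del/+ replicate 3. How much of the Nppa in SkM came from ventricular RNA was not tested.

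The ratio of Nppa to Nppb, per exon length, was 3.79 and 4.27 in the WT LVs and 3.23, 4.58 and 2.80 in E0del/+. The genotypes overlapped, and the mean log2 ratio was 2.01 ± 0.12 for WT (n = 2) and 1.79 ± 0.36 for E0del/+ (n = 3, both ± SD; exact permutation of the genotype labels, two-sided p = 0.5, where 0.1 is the smallest p that 2 against 3 mice allow). In batch 1 the ratio was lower in E0del/+, and in batch 2 it was higher. The difference of the mean log2 ratios was -0.22, and -0.13 without WT LV replicate 2.

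Corin lies on chromosome 5 from 72300025 to 72504540 on the minus strand, with 23 exons summing to 5033 bp. Its LV levels were 341 and 215 CPM in WT, and 401, 275 and 283 CPM in E0del/+. The genotypes overlapped, and the library that carried skeletal muscle counts, WT replicate 2, had the lowest value. In SkM, Corin was between 0.422 and 1.11 CPM, or 6 to 18 reads, with no separation of the genotypes. As a share of its LV level this was 0.149% to 0.319%, which lay within the range of the single ventricle markers in every mouse. Myl2 set the upper end of that range. Leaving Myl2 aside, Corin lay above every ventricle marker in both WT mice and within their range in the E0del/+ mice.

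Npr1, the receptor for ANP and BNP, lies on chromosome 3 from 90450592 to 90465866 on the minus strand (22 exons, 4065 bp). It stood at 79.9 and 62.4 CPM in the WT LVs and at 70.0, 108 and 68.4 CPM in E0del/+. In SkM it stood at 28.9 and 12.6 CPM in WT and at 25.4, 25.0 and 27.1 CPM in E0del/+. E0del/+ replicate 2 was the highest LV and WT replicate 2 the lowest library in both tissues, and the genotypes overlapped. The LV of WT replicate 2 was the library with skeletal muscle counts. With these subtracted it stood at 72.1 CPM, above the LVs of E0del/+ replicates 1 and 3.

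Npr2, the receptor for CNP, lies on chromosome 4 from 43631935 to 43651240 on the plus strand (22 exons, 3656 bp). Its levels were 124 and 103 CPM in the WT LVs, and 129, 150.05 and 114 CPM in E0del/+. In SkM they were 78.9 and 62.2 CPM in WT, and 89.0, 90.6 and 77.5 CPM in E0del/+. Of the 6 genes Npr2 varied least, with a highest value of 1.45 times the lowest in LV and 1.46 times in SkM.

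Npr3, the clearance receptor, lies on chromosome 15 from 11839897 to 11905674 on the minus strand (8 exons, 6926 bp). It was at 20.6 and 23.7 CPM in the WT LVs and at 23.6, 33.7 and 15.6 CPM in E0del/+. In SkM it was at 8.998 and 3.43 CPM in WT and at 5.48, 9.53 and 43.0 CPM in E0del/+. The SkM of E0del/+ replicate 3 was far above the other 4, and its LV was the lowest of the 5, so it was the only mouse with more Npr3 in SkM than in LV.

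**Figure D2:**
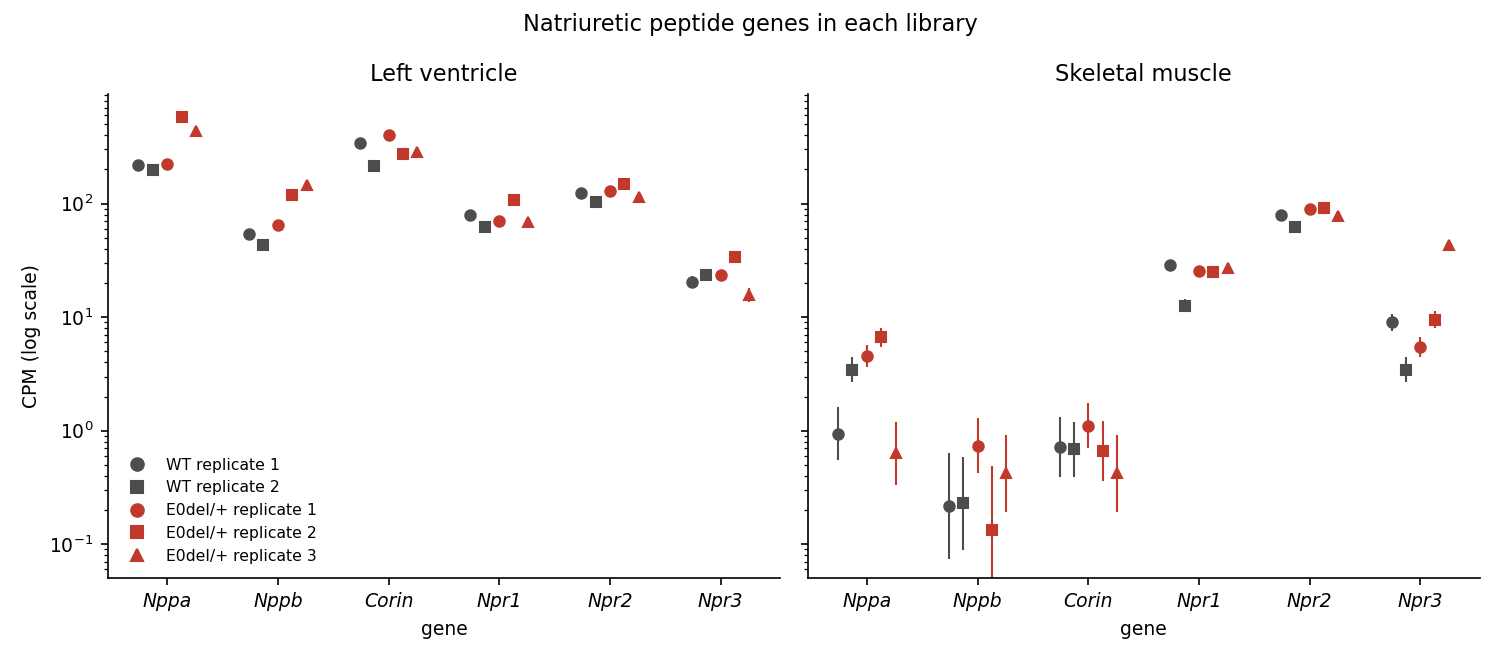
CPM on a log axis for each gene and library, LV on the left and SkM on the right, with WT in grey, E0del/+ in red and 1 marker shape per replicate number. Bars are 95% Wilson intervals for counting error. Nppa, Nppb and Corin lie above 43 CPM in every LV and below 7 CPM in every SkM, and Npr3 in the SkM of E0del/+ replicate 3 stands alone at 43.0 CPM.

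Per exon length, Nppa was the most abundant of the 6 genes in LV, at 399 ± 205 RPKM (SD, n = 5), followed by Nppb at 109.6 ± 57.1, Corin at 60.2 ± 14.0, Npr2 at 33.9 ± 4.79, Npr1 at 19.1 ± 4.46 and Npr3 at 3.38 ± 0.954 RPKM. The ranges of Nppb and Corin overlapped between libraries, though Nppb was above Corin in each of the 5 mice, and those of the other neighbours in this order did not overlap. By RPKM, Nppa ranked between 67 and 184 among all genes of an LV library and Nppb between 251 and 997. In SkM the order differed, with Npr2 first at 21.8 ± 3.11 RPKM, then Npr1 at 5.86 ± 1.58, Nppa at 3.91 ± 3.05, Npr3 at 2.03 ± 2.36, Nppb at 0.446 ± 0.311 and Corin at 0.143 ± 0.0490 RPKM. Only Npr2 was separated from its neighbour there, and the ranges of all other neighbours overlapped.

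The test of E0del/+ against WT in LV called none of the 6 genes, against a background of 0% of the 13420 genes tested. By edgeR's quasi-likelihood test, 0 genes passed an adjusted p of 0.05 and 564 genes were under 0.05 before adjustment (124 higher and 440 lower in E0del/+). The count before adjustment varied among settings that kept both WT libraries. It was 304 without E0del/+ LV replicate 1, 634 without E0del/+ LV replicate 3 and 1204 with scaling on the ventricle markers. DESeq2's Wald test called 12 genes and none of the 6. The log2 fold change was 0.90 for Nppa (standard error 0.35, 95% interval 0.11 to 1.70) and 1.11 for Nppb (standard error 0.33, 95% interval 0.36 to 1.86). Both had an adjusted p = 0.997 by edgeR's quasi-likelihood test (Benjamini-Hochberg), and the unadjusted values of that model, 0.0300 and 0.00889, do not count the genes tested. For 2 of the 6 genes, Nppa and Nppb, all E0del/+ levels lay above both WT levels, as they did for 8.82% of the genes tested. With its estimated skeletal muscle counts subtracted, WT LV replicate 2 stood at 251 CPM for Nppa, above E0del/+ replicate 1 at 221 CPM. The genotypes then overlapped for Nppa. For Nppb that library stood at 55.3 CPM after subtraction, still below every E0del/+ level. Corin, Npr1, Npr2 and Npr3 had log2 fold changes of 0.16, 0.13, 0.13 and 0.04, each with a 95% interval that included 0.

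The size of the peptide differences depended on the mice. The E0del/+ mouse of batch 1 had 1.01 times the Nppa and 1.18 times the Nppb of its WT partner, and that of batch 2 had 2.96 and 2.76 times, or 2.32 and 2.17 times with the skeletal muscle counts of its partner subtracted. Batch 3 held an E0del/+ mouse only. With the batch as a block, 5 genes were called, none of the 6, and the log2 fold changes were 0.67 for Nppa and 0.74 for Nppb. Without WT LV replicate 2 they were 0.89 and 1.02, and with its estimated skeletal muscle counts subtracted 0.78 and 0.99. Without WT LV replicate 1, where the lone WT library is the one with skeletal muscle counts, 578 genes were called, none of the 6. All 6 log2 fold changes were above 0, but scaling on the ventricle markers, which moved the median of all genes from -0.01 to -0.25, put those of Corin and of all 3 receptors below 0. Relative to that median none changed direction, with Nppa at 0.93, Nppb at 1.12, Corin at 0.18, Npr1 at 0.17, Npr2 at 0.15 and Npr3 at 0.05.

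**Figure D3:**
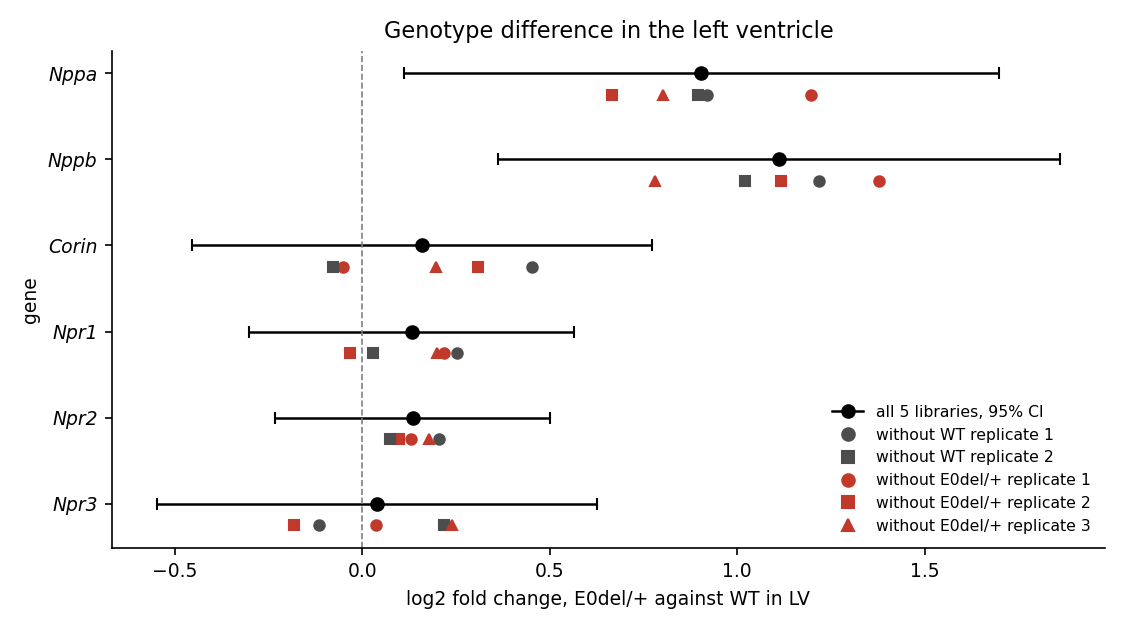
Log2 fold change of E0del/+ against WT in LV for the 6 genes. Black points and bars give the estimate from all 5 libraries with its 95% interval, and coloured markers give the estimate without 1 named library. Estimates for Nppa stay between 0.67 and 1.196 and for Nppb between 0.78 and 1.38, whereas those for Corin, Npr1 and Npr3 cross 0.

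In SkM, none of the 5 genes tested was called, against 0% of 13154 genes, and Nppb was too low to be tested. Over all genes, edgeR's quasi-likelihood test and DESeq2's Wald test both called 0, with 114 and 151 genes at an unadjusted p under 0.05. The edgeR count varied among settings that kept both WT libraries. It was 16 without E0del/+ SkM replicate 2, 291 without E0del/+ SkM replicate 3 and 596 with the batch as a block. The log2 fold change was 1.70 for Npr3 (95% interval -0.74 to 4.15) and 0.31 without E0del/+ SkM replicate 3, the library with the high value. It was 0.79 for Nppa (95% interval -1.84 to 3.42), with values from 0.091 to 2.21 when 1 library was left out and 1.54 with the batch as a block, none of them called. Within both batches E0del/+ was above WT in SkM for Nppa (4.87 and 1.94 times) and Npr2 (1.13 and 1.46 times), and for Nppb, Corin, Npr1 and Npr3 it was above WT in 1 of the 2. The sum of the 6 ventricle markers was also above WT in SkM within both batches, at 347 against 149.7 CPM and at 233 against 71.1 CPM. The log2 fold changes of the 6 in SkM lay between 0.72 (Ryr2) and 1.25 (Myh6), none called. Their part in the SkM difference of Nppa was not tested. With the batch as a block, 1 gene was called in SkM, which was not among the 6. The difference between the genotype effects in LV and in SkM was called for none of the 6 genes, against 0% of 14327 genes, with 477 genes at an unadjusted p under 0.05 by edgeR and 17 called by DESeq2's Wald test. For Nppa it was 0.16 on the log2 scale, with a 95% interval of -2.27 to 2.59. The fit also gave 0.21 for Nppb (95% interval -2.14 to 2.56), which passed the filter only through its LV counts. Whether Nppa responded to genotype in LV alone cannot be told from its interval. For Nppb the difference cannot be read, since its genotype effect in SkM was not tested.

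LV and SkM were compared within the 5 mice. The level of Nppa in LV was 235 and 57.3 times that in SkM in WT replicates 1 and 2, and 48.6, 87.4 and 683 times in E0del/+ replicates 1 to 3. For Nppb the ratios were 253 and 189.6 in WT, and 87.5, 898 and 344 in E0del/+, and for Corin they were 473 and 313 in WT, and 362, 412 and 671 in E0del/+. Corin varied least of the 3 between mice, and the high ratios of Nppa in WT replicate 1 and E0del/+ replicate 3 came from the lowest SkM levels. By edgeR's quasi-likelihood test with the mouse as a block, 4 of the 6 genes were called higher in LV, as were 32.1% of the 13283 genes tested. Of the 6, 0 were called lower, as were 30.0% of all genes tested. The 4 include Nppa, Nppb and Corin, which passed the filter on low counts in this comparison through LV alone.

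The log2 fold change of LV over SkM was 8.04 for Corin (standard error 0.20, adjusted p = 9.29e-07), 7.16 for Nppb (standard error 0.34, adjusted p = 5.46e-06) and 6.09 for Nppa (standard error 0.56, adjusted p = 6.49e-05) in edgeR's quasi-likelihood test (Benjamini-Hochberg). All 3 were higher in LV in 5 of 5 mice. Since all 3 passed the filter through LV alone, their calls rest on LV counts and add nothing to that direction. Nppb was also too low in SkM for a test there. In the same test Npr1 was higher in LV by a log2 fold change of 1.07 (standard error 0.14, adjusted p = 0.000326), also in 5 of 5 mice. In a bulk library, more cells of a type and more RNA per cell cannot be told apart.

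Npr2 and Npr3 were not called. Npr2 had a log2 fold change of -0.02 (95% interval -0.25 to 0.20). Its plain CPM was 1.45 to 1.66 times as high in LV as in SkM in every mouse, and with total counts in place of TMM scaling, which moved the median of all genes from 0.02 to 0.68, the log2 fold change was 0.64 (edgeR's quasi-likelihood test, Benjamini-Hochberg, adjusted p = 0.000286). Relative to that median it was -0.04. The same change of scaling moved the share of higher among called genes from 51.7% to 83.2%. The log2 fold change of Npr3 was 0.68 (95% interval -0.60 to 1.95), with 4 of 5 mice higher in LV. Without the mouse E0del/+ replicate 3 it was 1.27 and was called (edgeR's quasi-likelihood test, adjusted p = 0.00402, against a range of 0.00402 to 0.938 over all alternatives).

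**Figure D4:**
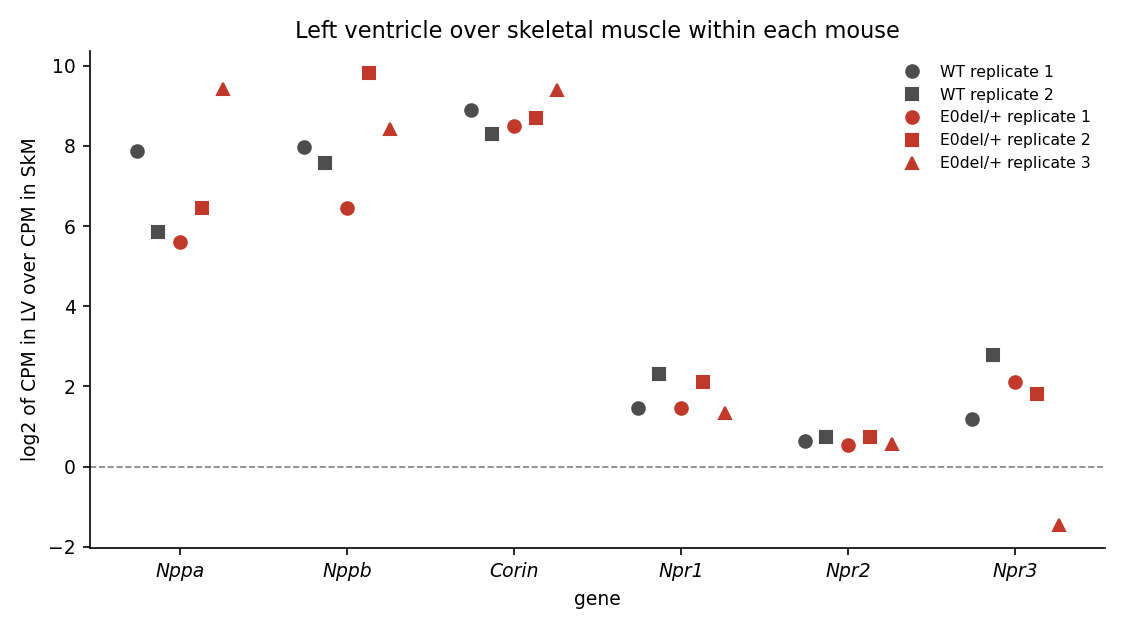
Log2 of the CPM in LV over the CPM in SkM, before TMM scaling, for each gene and mouse, with WT in grey and E0del/+ in red. Nppa, Nppb and Corin lie between 5.60 and 9.81 in all mice, Npr1 and Npr2 lie between 0.53 and 2.30, and Npr3 of E0del/+ replicate 3 is the only point below 0, at -1.46.

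Other genes of the pathway were read beside the members. Of 16 such genes, 15 were tested between tissues, of which 9 were called higher in LV and 3 lower, where 32.1% of all genes tested were called higher and 30.0% lower. Among the processing enzymes, Pam, which amidates peptide hormones, was between 637 and 1044 CPM in LV and between 18.8 and 39.9 CPM in SkM (log2 fold change 4.10). Pcsk6, a proprotein convertase known to activate corin, had a log2 fold change of 2.55, and Furin, a convertase that can cleave pro-BNP, one of 0.50. Ostn, which encodes the muscle-derived ligand musclin that binds NPR-C, went the other way, at 16.0 to 51.9 CPM in SkM and at most 3.24 CPM in LV. That LV maximum came from WT replicate 2, and the other LVs were at 0.454 CPM or below. Nppc, which encodes the NPR-B ligand CNP, was at 0.360 CPM or below in all 10 libraries and was not tested.

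Among other genes of cyclic GMP, both subunits of the soluble guanylyl cyclase, Gucy1a3 and Gucy1b3, which nitric oxide activates, were higher in LV with log2 fold changes of 2.02 and 2.00. So were the phosphodiesterases Pde3a, Pde9a, Pde2a and Pde5a, with 5.16, 1.23, 1.18 and 1.052. Prkg1, the cyclic GMP-dependent kinase I, and Ide, a protease that degrades natriuretic peptides, were lower in LV, at -1.43 and -1.41. Between genotypes in LV, 14 of the pathway genes were tested and 0 were called, with a median log2 fold change of -0.09 against -0.01 for all genes tested. One of the 14, Mme, which encodes the peptide-degrading neprilysin, had all E0del/+ values below WT, as for 6.53% of all genes tested. It stood at 17.1 and 25.8 CPM in WT and at 14.4, 10.9 and 14.6 CPM in E0del/+ (log2 fold change -0.75, 95% interval -1.38 to -0.12, not called). In SkM, 15 were tested and 0 were called, with a median of 0.11 against -0.01. The difference of genotype effects between LV and SkM was called for 0 of 15.

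Genes that are often read beside natriuretic peptides under load were given the same test. Of 11, 0 were called between genotypes in LV, with a median log2 fold change of 0.04 against -0.01 for all genes tested. Ankrd1, a stretch-responsive sarcomere gene, stood at 1119 and 1226 CPM in the WT LVs and at 1371, 1529 and 2326 CPM in E0del/+. Its E0del/+ values all lay above WT, as for 8.82% of all genes tested, and it was the only one of the 11 of which this was true. Col1a1, a collagen gene, went the other way, at 206 and 185 CPM in WT and at 148, 172 and 100.1 CPM in E0del/+, all below WT, as for 6.53% of all genes tested (log2 fold change -0.56, 95% interval -1.03 to -0.09, not called). Ctgf, a matricellular gene, stood at 120.1 and 139.6 CPM in WT and at 118, 132 and 439 CPM in E0del/+, so that replicate 3 alone was high. Replicate 3 also had the highest Nppb, whereas the highest Nppa came from replicate 2, where Ctgf was level with WT. Myh7, the slow myosin heavy chain, stood at 1681 and 1253 CPM in WT and at 1649, 2090 and 1738 CPM in E0del/+, which overlapped. Acta1, skeletal actin, stood at 434 and 9480 CPM in WT, the second of which was the library with skeletal muscle counts, and at 593, 581 and 1482 CPM in E0del/+. Between tissues, 7 of the 11 were called higher in LV and 2 lower, against 32.1% and 30.0% of all genes tested, of which Myh6, Ankrd1, Atp2a2, Ctgf, Col1a1 and Col3a1 had log2 fold changes of 8.58, 6.93, 5.10, 3.49, 1.59 and 1.10, and Acta1 and Xirp2 of -5.86 and -2.75. In SkM, and for the difference of genotype effects, 0 of the 11 were called.

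Markers of other cells were read in each library. Atrial tissue is rich in Nppa. The 5 atrial markers summed to 518 and 383 CPM in the WT LVs and to 658, 547 and 559.6 CPM in E0del/+. Kcnk3, which these LVs also expressed, was the most abundant at 377 to 648 CPM, and the defining markers Myl7 and Bmp10 were at 3.00 CPM or below and at 0.0908 CPM or below, with Bmp10 at 0 in 3 of 5 LVs. Myl7 stood at 0.614 and 1.26 CPM in the WT LVs and at 2.73, 3.00 and 1.22 CPM in E0del/+, so E0del/+ replicate 1, with WT-like Nppa, had nearly as much as replicate 2, and replicate 3, with high Nppa, was level with WT replicate 2. Myl4 had the same pattern, at 1.92 and 2.79 CPM in WT and at 6.44, 7.27 and 2.44 CPM in E0del/+. The log2 fold changes were 1.23 for Myl7 (95% interval -0.04 to 2.49) and 1.10 for Myl4 (95% interval 0.03 to 2.17), against 0.33 for Kcnk3 (95% interval -0.19 to 0.84) and -0.25 for Sln (95% interval -2.41 to 1.90), and none was called. Conduction system markers, all 3 of which were detected in each LV, summed to between 16.7 and 20.2 CPM, with Hcn4 or Cntn2 the most abundant. The part of either tissue in the Nppa levels was not tested.

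All 5 endothelial markers were detected in every library, with Cdh5 the most abundant. In LV they summed to 1394 and 966 CPM in WT and to 1279, 1927 and 1125 CPM in E0del/+, an order of mice that matched that of Npr1 in LV. In SkM they summed to 212 and 104.7 CPM in WT and to 221, 206 and 174 CPM in E0del/+, and WT replicate 2 was the lowest for the markers and for Npr1, but the order of the other mice differed. Smooth muscle and pericyte markers, led by Rgs5 there, were also lowest in that library, at 63.4 CPM against between 126 and 200.2 CPM in the other SkM libraries. Endocardial markers, led by Nfatc1, summed to between 42.3 and 64.2 CPM in LV and between 73.4 and 93.1 CPM in SkM. The part of these cells in the Npr1 levels was not tested.

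The 5 adipocyte markers, led by Cfd, summed to 1025 and 7.84 CPM in the WT SkM libraries and to 253, 136 and 1037 CPM in E0del/+, with none at 0. Npr3 is known to be expressed in fat, and WT SkM replicate 1, with a sum close to that of E0del/+ replicate 3, had Npr3 at 8.998 CPM against 43.0 CPM. Cfd carried most of these sums, and the libraries differed in Adipoq (66.7 against 114.6 CPM), Plin1 (119 against 189 CPM) and Lep (12.02 against 43.1 CPM), all higher in E0del/+ replicate 3, whereas Cfd (811 against 675 CPM) and Retn (16.3 against 15.3 CPM) were lower in it. The 4 fibroblast markers, led by Dcn, summed to 197 and 76.5 CPM in WT and to 97.8, 165 and 254 CPM in E0del/+, again highest in E0del/+ replicate 3. Of the 4, Pdgfra was not highest there, at 7.11 CPM in that library against 13.5 CPM in WT replicate 1. Their part in the Npr3 level was not tested. In LV, adipocyte markers were between 1.57 and 20.96 CPM except in WT replicate 2, at 245 CPM. Of 3 blood markers the files held 2, of which Alas2 was at 21.7 to 31.6 CPM in LV and at 2.52 to 19.99 CPM in SkM, and Hba-a1 was at 0 in all 10 libraries.

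**Figure D5:**
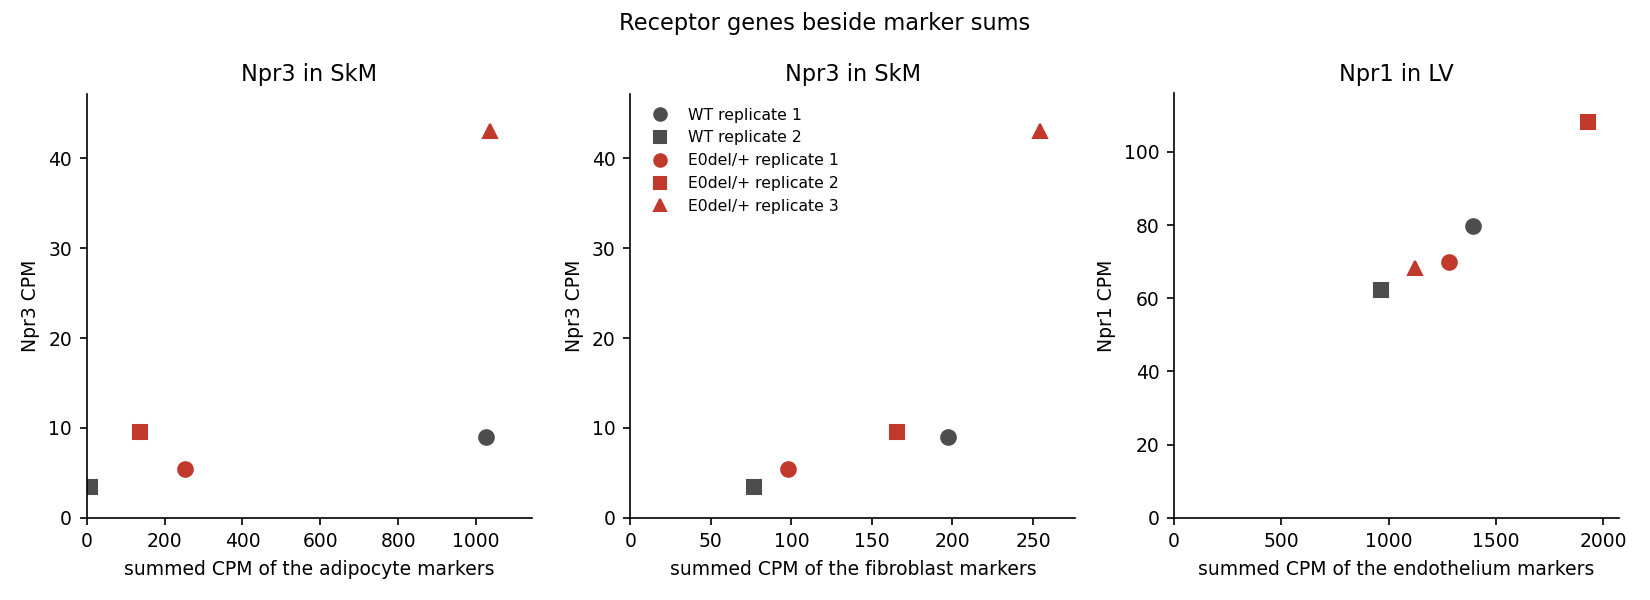
Receptor CPM against the summed CPM of a marker list, 1 point per library, for Npr3 with adipocyte (left) and fibroblast markers (middle) in SkM and for Npr1 with endothelial markers in LV (right). WT is grey and E0del/+ red. WT replicate 1 and E0del/+ replicate 3 have adipocyte sums of 1025 and 1037 CPM, mostly Cfd, and differ in Npr3, and Npr1 in LV follows the order of the endothelial sums, which it did not in SkM.

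The genes with the most similar profiles were found by the root mean square difference of mean-centred log2 CPM over the 10 libraries, among 12988 genes. For Nppa the closest was Ankrd1 (difference 0.56), then Upk3b (0.78) and Mir208b (0.80). Mir208b is a microRNA gene inside Myh7, and whether a read there came from it or from its host cannot be told. The levels of Mir208b and Myh7 did not move together between tissues. In E0del/+ replicate 2, Mir208b stood at 76.3 CPM in LV and 0.533 CPM in SkM, against 2090 and 1548 CPM for Myh7. For Nppb the closest were Rasl10b (0.52), Myzap (0.57) and Hopx (0.59), and for Corin they included Fhl2 (0.27) and Gata4 (0.32). All of these lists follow the contrast of LV with SkM. Npr1 was closest to Maml2 (0.12), Asap1 (0.13) and Os9 (0.15), and Npr2 to Rsbn1l (0.08), Bod1l (0.08) and Cyb561d1 (0.09). Npr3 was closest to C2 (0.37), to Dpt (0.40), which is among the fibroblast markers, and to Lhfpl2 (0.43). Of the 18 genes, 3 for each member, 7 were found again without the mouse WT replicate 2, among them Ankrd1 for Nppa and C2 and Dpt for Npr3, but none for Npr1 or Npr2.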

How the data were processed

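Poly(A) RNA from 2 tissues of 5 mice was sequenced after Nextera XT preparation, in which the strand is lost. For each library a file of 23337 genes was deposited by the authors, with counts and RPKM. The submitters' processing notes name STAR, DESeq2 and the build mm10, with no roles. Their versions, the annotation and how multi-mapping reads were handled are not given in the sources used here. Recomputing RPKM from the counts, the exon lengths and the count totals gave the deposited values. Genotype, tissue, mouse and batch were taken from the labels, where the batch tag equals the replicate number.

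CPM were computed from the counts with no scaling factor. Tests ran in R 4.3.3 with edgeR 4.0.16: filterByExpr, TMM scaling, the quasi-likelihood test and Benjamini-Hochberg adjustment over all genes tested, with a threshold of 0.05. Each genotype comparison used the 5 libraries of its tissue. LV and SkM were compared with the mouse as a block, and the difference of genotype effects over all 10 libraries with 1 coefficient per group. DESeq2 1.42.0 was an alternative, and the others were other scalings and filters, blocks for batch or Xist (above 100 CPM), 1 fit over all libraries, removal of each library or mouse, and subtraction of skeletal muscle counts. Intervals on CPM are Wilson intervals and cover counting error only. Replicates within a group were compared by chi-square, which was 13.9 to 110.03 per gene, so no library was a copy of another of its group. Likeness used TMM, a prior count of 2 and genes with a mean of at least 1 CPM. Promoter sequences, from RefSeq on GRCm38.p6, were searched in Python 3.11.15, and figures were drawn with matplotlib 3.10.9.

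The tissues pair by mouse as the labels give it, and the batch tag pairs WT with E0del/+ in batches 1 and 2. Deviations from group means correlated across genes by 0.03 and -0.12 between the genotypes in LV, by 0.52 and 0.31 in SkM, and by -0.10 to 0.09 between the tissues of a mouse. Genes were named by a rule: the 6 members throughout, Ttn, 16 other pathway genes and 11 load genes by counts, with values for up to 8 of each past the threshold by level, cell markers by list, and the 3 genes most like each member, of which 1 is not reported. Prkg2, Dpp4, Rcan1 and Postn enter the counts only. Nppc, the pathway genes beyond 8, and the LV levels of Mme, Ctgf, Ankrd1, Col1a1, Myh7 and Acta1 were chosen after their values were seen. The single atrial, adipocyte and fibroblast markers, the ventricle markers beside Nppa in SkM, the motifs and the ratio of Nppa to Nppb within batches were added after the data were seen. The members and lists were chosen with earlier results of these data known.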

Additional observations from a re-analysis of the deposited data

Results flagged for a closer look

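For the 6 genes, 18 sets of 5 values, the levels in each tissue and the ratios of LV to SkM, were examined for a value far from the rest. Of these 2 stood out, and chance alone gives about 1 in 20. Npr3 in SkM was at 43.0 CPM in E0del/+ replicate 3, far above the other 4 libraries. Npr1 in SkM was at 12.6 CPM in WT replicate 2, far below the other 4.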

How the results depend on the processing

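Of 418 values recomputed under an alternative, 382 kept their direction and call, 27 changed direction, of which Npr2 between tissues also passed the threshold, 8 counts moved and 1 more value passed it. No value of the 6 genes that was called lost its call, except that requiring at least 10 counts in every library left 1 called member between tissues in place of 4, because Nppa, Nppb and Corin were then not tested.

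In LV, the count of called genes was 12 with DESeq2's Wald test, 5 with the replicate block and between 0 and 578 with 1 library left out. With scaling on the ventricle markers, the log2 fold changes of Corin, Npr1, Npr2 and Npr3 were -0.073, -0.085, -0.099 and -0.20, with no change of direction relative to the median of all genes. With Xist as a block, that of Npr3 was -0.033 in LV and that of Corin -0.095 in SkM. With 1 library left out, LV values ranged from -0.080 to 0.45 for Corin, -0.033 to 0.25 for Npr1 and -0.18 to 0.24 for Npr3, and SkM values from -0.32 to 0.283 for Corin, from 0.091 to 2.21 for Nppa and from -0.027 to 0.91 for Npr1. The replicate block called 1 gene in SkM, and in neither tissue one of the 6 genes. Nppa and Nppb in LV stayed above 0 in all 15 alternatives, at 0.67 to 1.196 and 0.74 to 1.38.

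Between tissues, Npr2 was 0.64 with total counts, 0.027 with no filter, 0.063 with at least 10 counts in every library and between -0.067 and 0.044 with 1 mouse left out. Npr3 was between 0.30 and 1.27 with 1 mouse left out, was called only without E0del/+ replicate 3, and was 0.056 without the mouse block. Scaling on total counts moved the share of higher among called genes from 51.7% to 83.2%. The difference of genotype effects gave 17 called genes with DESeq2's Wald test and between 0 and 174 with 1 mouse left out, where Nppa ranged from -1.41 to 0.87, Nppb from -0.18 to 1.09 and Corin from -0.33 to 0.51. With skeletal muscle counts subtracted it was -0.012 for Nppa and -0.034 for Corin. Without WT replicate 1 the median of all genes was -0.12 for this difference. The causes were not tested. The log2 ratio of Nppa to Nppb within batches 1 and 2, an alternative chosen after seeing the data, differed by -0.065. Of the 18 like genes, 7 were shared without WT replicate 2.

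With 2 WT mice against 3, a lone WT library left after removal is assumed to vary like E0del/+. The 2 to 100 reads of Nppa, Nppb and Corin a library limit the precision of these genes in SkM. Nppb, not tested in SkM alone, entered the comparisons over both tissues through its LV counts. Nppa and Corin entered the comparison of LV with SkM in the same way.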
